A study of Mus musculus with 9 samples.

Results

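The 5' end of the mouse HoxA cluster and its neighbour Evx1 were examined for H3K27ac, the acetylated form of lysine 27 on histone H3 that is found at promoters and enhancers in use, in forelimb buds that differ in Hedgehog signaling. The 5 genes are Hoxa9, Hoxa10, Hoxa11, Hoxa13 and Evx1, out of 21911 annotated protein-coding genes (GENCODE M21). They were chosen by position: every called peak was taken that touched chr6:52223100-52618378 (mm10), which runs from the first annotated base of Hoxa9 through Evx1 to 300 kb beyond it, 395 kb in all. This region held 19 of the 25096 peaks of the WT list, 21 of the 32085 of the Shh-/- list and 17 of the 34641 of the Shh-/-;Gli3-/- list.

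Forelimb buds were taken at E10.5 (33 to 34 somites) from wild-type (WT) embryos, from Shh-/- embryos, and from Shh-/-;Gli3-/- embryos, here also called double mutants. Shh encodes the Hedgehog ligand of the posterior limb bud, and Gli3 encodes the transcription factor whose repressor form accumulates when the ligand is missing. Every immunoprecipitation used both forelimb buds of 1 embryo in MicroChIP-seq, a protocol for small cell numbers, with 2 H3K27ac replicates and 1 input library per genotype. The sample labels give the strain background as mixed, whereas the paper states that both null alleles were kept on Swiss Webster. The genotype was read from the sample titles, because the genotype entry of the labels says wild type throughout. All mutants carried germline null alleles, so every cell of the limb bud lacked the gene, and the WT buds carried neither mutation.

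Each genotype is represented by 1 peak list that carries no value per replicate and no read depth. No spread between embryos can be given for any value, no test of a genotype difference was possible, and the differences below compare 3 lists rather than 3 sets of embryos. The buds were used whole, so a shorter stretch of called acetylation in a genotype may be fewer acetylated cells or less acetylation per cell, and these cannot be told apart. Peaks at the starts of 6 of 6 limb mesenchyme genes (Prrx1, Prrx2, Tbx5, Twist1, Msx1 and Lhx9) were present in every list, while none of the 7 genes that mark ectoderm (Krt5, Krt14, Epcam), blood (Hba-a1, Gata1) or endothelium (Cdh5, Kdr) had one in any. The hindlimb genes Pitx1 and Tbx4 had no peak at their starts either, and within the Tbx4 span peaks covered 0 bp in WT, 150 bp in Shh-/- and 650 bp in Shh-/-;Gli3-/-. The deletions were not checked here: Shh had no peak in any genotype, WT included, and Gli3 had a peak at its start in all of them, with 5915 bp of its span covered in WT, 6115 bp in Shh-/- and 12615 bp in Shh-/-;Gli3-/-. The bases that the mutant alleles lack were not looked up, so these lengths do not test the genotype labels.

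Hox genes encode homeodomain transcription factors and are switched on along the cluster in the order in which they lie on the chromosome. In the limb bud, Hoxa9, Hoxa10 and Hoxa11 act in the upper and middle segments, whereas Hoxa13, at the end of the cluster, is activated last and in the distal cells that form the hand and foot. Evx1, a homeodomain gene beyond Hoxa13, is a cluster neighbour, and the gene-poor interval on its far side is known to hold enhancers for the distal expression of the 5' Hoxa genes.

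The sequences of the places where the acetylated domain ran, ended and reappeared are given first. All are from build GRCm38. The promoter windows, from RefSeq (GRCm38.p6, which had a window for 5 of 5 genes), reach from 250 bases before to 50 bases after a start and are written 5' to 3' on the gene's strand with CpG dinucleotides in capitals. The Hoxa11 window, chr6:52245761-52246060, is where acetylation continued across a start in the double mutant list alone, and the Hoxa13 window, chr6:52260831-52261130, stayed without a peak.
Hoxa11: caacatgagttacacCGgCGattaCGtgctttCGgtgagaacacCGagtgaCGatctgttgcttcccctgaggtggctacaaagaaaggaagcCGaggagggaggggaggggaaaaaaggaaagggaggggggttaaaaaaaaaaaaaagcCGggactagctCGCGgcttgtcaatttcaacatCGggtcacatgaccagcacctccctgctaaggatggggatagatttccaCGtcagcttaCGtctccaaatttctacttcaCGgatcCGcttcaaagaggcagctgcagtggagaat
Hoxa13: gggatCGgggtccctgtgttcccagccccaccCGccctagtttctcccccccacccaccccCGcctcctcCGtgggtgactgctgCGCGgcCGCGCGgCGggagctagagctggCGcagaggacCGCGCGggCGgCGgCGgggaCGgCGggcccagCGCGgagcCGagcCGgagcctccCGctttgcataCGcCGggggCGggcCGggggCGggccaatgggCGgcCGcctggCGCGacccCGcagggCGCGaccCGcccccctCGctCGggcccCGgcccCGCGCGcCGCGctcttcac
The Hoxa13 window held 45 CpG and 81% G or C, and 1.93% of the 32851 RefSeq promoter windows of the mouse had as many CpG. The Hoxa11 window held 15 CpG at 51% G or C, a CpG count that 34.6% of windows reached, and the median window held 7. CpG density therefore did not follow the order of acetylation: the Hoxa9 window (chr6:52227321-52227620), under peaks over all of its 300 bases in each list, held 4 CpG, and the bare Evx1 window (chr6:52313248-52313547) held 12, like the outer Hoxa10 window (chr6:52240805-52241104).

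A further sequence lies in an intron of Hoxa10 and holds the only occurrence in the 395 kb of the GLI motif GACCACCCA (both strands searched, chr6:52239880-52239888, plus strand). Its 8-base core GACCACCC, which the longer motif contains, is in capitals.
Hoxa10 intron: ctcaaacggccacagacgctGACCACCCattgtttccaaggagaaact
The last is the stretch of the far flank that was under a peak in both mutant lists and not in WT, chr6:52443050-52443199, plus strand, with its 2 CpG in capitals.
Far flank: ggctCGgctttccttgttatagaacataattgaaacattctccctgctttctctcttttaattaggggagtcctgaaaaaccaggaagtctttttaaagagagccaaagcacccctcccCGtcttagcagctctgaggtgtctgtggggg
Neither GACCACCC nor CCAATAAA, a motif of posterior Hox proteins, occurred in the far flank stretch or in any of the 6 promoter windows of the 5 genes. Of all RefSeq promoter windows, 0.807% held GACCACCC, 0.253% held GACCACCCA and 1.12% held CCAATAAA.

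H3K27ac covered Hoxa9 almost entirely, Hoxa10 and Hoxa11 over more than 55% of their lengths, and neither Hoxa13 nor Evx1 at all, in all 3 genotypes. Hoxa9 (ENSMUSG00000038227.15, chr6:52223100-52231089, minus strand) was under peaks over 7250 bp (90.7%) in WT, 6990 bp (87.5%) in Shh-/- and 7840 bp (98.1%) in Shh-/-;Gli3-/-. For Hoxa10 (ENSMUSG00000000938.11, chr6:52231197-52240854, minus strand), the lengths were 5700 bp (59%), 6208 bp (64.3%) and 7158 bp (74.1%) in the same order. Hoxa11 (ENSMUSG00000038210.10, chr6:52242106-52245810, minus strand) was covered over 2050 bp (55.3%), 2400 bp (64.8%) and 2861 bp (77.2%). The share of a gene under peaks thus became smaller from Hoxa9 towards Hoxa13 in WT, and the double mutant list had the longest coverage of each of the 3 genes. Hoxa13 (ENSMUSG00000038203.18, chr6:52257694-52260880, minus strand) and Evx1 (ENSMUSG00000005503.8, chr6:52313498-52318378, plus strand) had 0 peaks in each list, as did the 52.6 kb between them. They are 2 of the 5 genes, and 43.4% of all 21911 protein-coding genes had no peak over their span in any list. A gene without a called peak may still carry acetylation below the caller's limit.

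**Figure D1:**
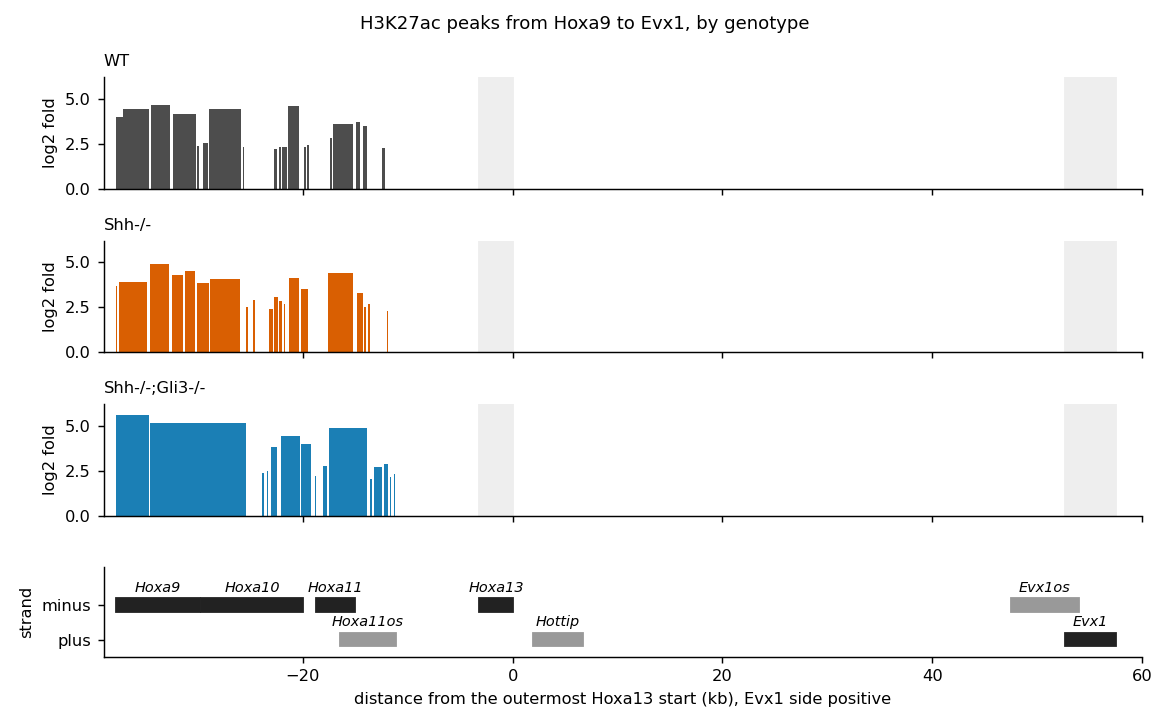
H3K27ac peaks of the WT, Shh-/- and Shh-/-;Gli3-/- lists from Hoxa9 to Evx1, with the distance from the outermost Hoxa13 start in kb on the x axis and the largest log2 fold over the input of the same genotype as the height of each bar (y axis). Peaks are clipped at the first base of Hoxa9, the grey bands mark Hoxa13 and Evx1, and the lowest panel shows genes by strand. Peaks end 7.99 to 8.99 kb before Hoxa13 in the 3 lists. The leftmost bars, with heights of 3.97 in WT, 3.69 in Shh-/- and 5.59 in Shh-/-;Gli3-/-, are peaks whose strongest points lie outside the plotted part, for Shh-/-;Gli3-/- in Hoxa7.

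**Figure D2:**
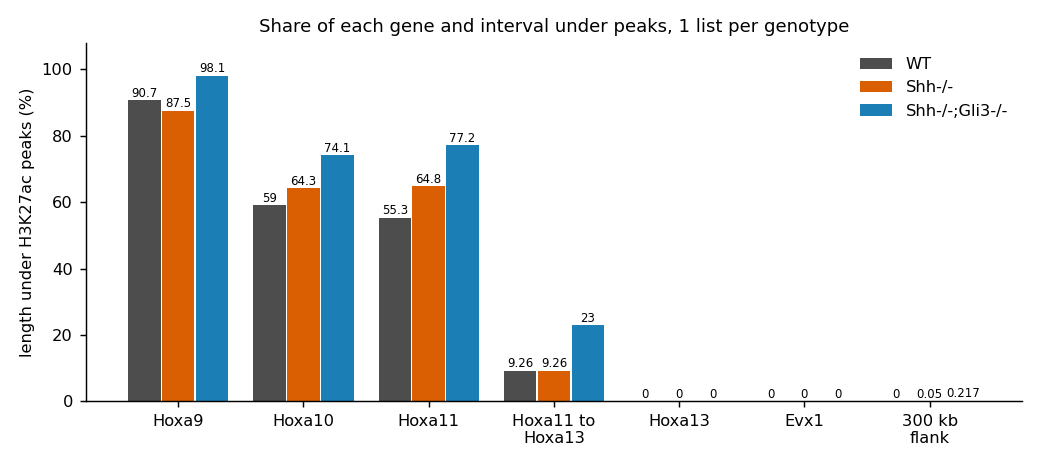
Percentage of the length (y axis) of Hoxa9, Hoxa10, Hoxa11, the interval from Hoxa11 to Hoxa13, Hoxa13, Evx1 and the 300 kb flank that lay under H3K27ac peaks, with 1 bar per peak list and no error bars because each genotype has 1 list. Hoxa9 stands at 87.5 to 98.1%, and Hoxa13 and Evx1 stand at 0 in every list.

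Coverage this complete was uncommon among genes. In WT, 62 of the 10343 protein-coding genes with a peak (0.599%) were covered over as large a share as Hoxa9, 129 as Hoxa10 and 143 as Hoxa11, against a median covered share of 1.98%. In Shh-/-, the numbers were 46, 104 and 102 of 11287 genes, with a median of 2.21%. In Shh-/-;Gli3-/-, they were 67, 125 and 117 of 10914 genes, with a median of 2.52%. All 3 are short genes, for which a domain of a given length covers a larger share. By covered length, which does not depend on the length of the gene in this way, 45 genes of the WT list had as many bases under peaks as Hoxa10 and 522 as many as Hoxa11.

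The peaks themselves were wide. The median width in the region was 450 bp in WT, 600 bp in Shh-/- and 400 bp in Shh-/-;Gli3-/-, against 250, 250 and 300 bp in the whole lists. Peaks of at least 1000 bp made up 7 of 19 (36.8%), 7 of 21 (33.3%) and 4 of 17 (23.5%) peaks of the region, against 8.84%, 8.6% and 12.8% of the lists. Fewer peaks in the double mutant list went with more covered length, because single peaks there spanned what the other lists divide. One Shh-/-;Gli3-/- peak, chr6:52215400-52226199, was 10800 bp long and the 2nd widest of its list, began in Hoxa7 and ended in Hoxa9, and overlapped 10 WT and 6 Shh-/- peaks, which covered 79.2% and 81.5% of it. The next, chr6:52226350-52235449, was 9100 bp long and the 4th widest, ran from Hoxa9 into Hoxa10, and overlapped 6 WT and 5 Shh-/- peaks, which covered 86.8% and 86.3% of it. The widest WT peak of the region, 3050 bp at chr6:52231950-52234999 in Hoxa10, was the 73rd widest of its list, and the widest Shh-/- peak, 2850 bp at chr6:52232050-52234899, lay at the same place.

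Among peaks whose strongest point lay within Hoxa9, the highest had it in an exon and at nearly the same base in all lists. The authors' peak statistic was largest at base 52227075 in WT, in a peak of 1800 bp with a log2 fold over input of 4.66 that ranked 1088th of the WT list (the top 4.34%). In Shh-/- it was largest at base 52227225, in a peak of 1850 bp (log2 fold 4.88, rank 1161, the top 3.62%). In the double mutant list it was at base 52227025, in the 9100 bp peak (log2 fold 5.15, rank 1127, the top 3.25%). The 10800 bp double mutant peak that ends in Hoxa9 was higher (log2 fold 5.59), with its strongest point in Hoxa7. The height of that peak within Hoxa9 is not given, so the maximum over the whole gene is not known for this list. The 3 positions lay within 200 bp of each other and close to the inner Hoxa9 start at base 52227370. Folds were read within a list only, since each is relative to the input of its own genotype. The window from 2 kb before to 1 kb after that start was covered to 89% in WT, 90% in Shh-/- and 100% in Shh-/-;Gli3-/-, and the one around the innermost start, base 52226189, to 91.7%, 90.3% and 95%.

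The span of Hoxa9 also holds Mir196b (chr6:52230081-52230165, minus strand), which encodes a microRNA that targets Hox messenger RNAs and was under a peak over its whole length in each list. Its 5' arm (RefSeq, chr6:52230129-52230150) is given with the seed, bases 2 to 8, in capitals.
miR-196b-5p: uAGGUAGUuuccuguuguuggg
The outermost annotated Hoxa9 start, base 52231089, lay in a 350 bp break between WT peaks and under a peak in both mutant lists. Exons and introns of Hoxa9 were covered alike in WT (90.7% and 90.8%) and in Shh-/- (87.6% and 87.4%). In the double mutant list, exons were covered to 95.4% and introns to 100%.

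Hoxa10 carried 2 acetylated blocks, one over its distal part that continued from Hoxa9 and one just inside its outermost start. The second block was the higher in WT. Its peak, chr6:52239450-52240499, had a log2 fold of 4.57 and ranked 1262nd (the top 5.03%). In Shh-/- the matching peak, chr6:52239550-52240499, had a log2 fold of 4.12 and ranked 3939th (the top 12.3%). In Shh-/-;Gli3-/- it was 1850 bp long, chr6:52238750-52240599, with a log2 fold of 4.40 at rank 3213 (the top 9.28%). The strongest points of these second-block peaks lay within 350 bp of each other in an intron, 0.579 to 0.929 kb inside the outermost start at base 52240854. In the double mutant list, the first block was part of the 9100 bp peak (log2 fold 5.15), whose strongest point lay in Hoxa9. The height of that peak within Hoxa10 is not given, so which block was the higher there is not known. The lists differ in size and stringency, so ranks place a peak in its own list and were not compared between genotypes.

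The GLI motif printed above, GACCACCCA in the Hoxa10 intron, lay under this peak in all 3 lists. Its first base was 45 bp from the strongest point in WT, 95 bp in Shh-/-;Gli3-/- and 395 bp in Shh-/-. Of the 8 occurrences of the core GACCACCC in the region, this was the 1 under a peak, in each list. Another, at chr6:52259356-52259363, lay within Hoxa13, which had no peak. Among 300 bp windows around the strongest points of all peaks, 1.14% held GACCACCC in WT, 0.954% in Shh-/- and 0.904% in Shh-/-;Gli3-/-. Of the windows of the peaks of the region, 2 of 19, 0 of 21 and 1 of 17 did, and one of the WT windows lay just outside the region, around the strongest point of a peak that runs into Hoxa9. The motif CCAATAAA occurred 30 times in the region, and the 1 occurrence under a peak, in each list, was at chr6:52233511-52233518 in Hoxa10. Both motif counts are to be set beside the share of the region under peaks, which was 4.17% in WT, 4.43% in Shh-/- and 5.64% in Shh-/-;Gli3-/-. With 1 occurrence under a peak for each motif, no preference for peaks can be read from them. These matches are descriptions of sequence, and no binding was measured here.

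Around the outermost Hoxa10 start, the 3 kb window (2 kb before, 1 kb after) was covered to 34.9% in WT, 44.9% in Shh-/- and 61.7% in Shh-/-;Gli3-/-. A break of 450 bp in the WT peaks spanned the start itself, which was under a peak in both mutant lists. Around the inner start, base 52234939, the shares were 40.4%, 43.7% and 50.3%. Exons of Hoxa10 were covered more fully than its introns, at 80.6% against 48.6% in WT, 89.2% against 52.3% in Shh-/- and 95.2% against 63.9% in Shh-/-;Gli3-/-.

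Hoxa11 showed the opposite distribution, with its intron acetylated and its exons less so. The intron was covered to 92.9% in WT and to 100% in both mutant lists, and the exons to 32%, 42.9% and 63.1% in the order WT, Shh-/- and Shh-/-;Gli3-/-. The main WT peak, chr6:52243800-52245649, was 1850 bp long with a log2 fold of 3.61 and ranked in the top 18.4%. The Shh-/- peak, chr6:52243250-52245649, was 2400 bp long with a log2 fold of 4.38 in the top 8.44%. In Shh-/-;Gli3-/-, a peak of 3650 bp, chr6:52243350-52246999, with a log2 fold of 4.85 in the top 5.13%, took in 4 WT and 3 Shh-/- peaks. Here, too, ranks were not compared, and the double mutant peak joins several WT peaks. The Hoxa11 start, base 52245810, lay in a break of 250 bp in WT and of 350 bp in Shh-/-, and the double mutant list alone had it under a peak. The 3 kb window around it was covered to 54.6%, 61.3% and 85%. Of the printed Hoxa11 promoter window, 161, 61 and 300 of 300 bases were under peaks.

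Of the 16500 bp acetylated in WT, 87.6% were also under Shh-/- peaks and 97.9% under double mutant peaks. Over the whole WT list, these shares were 71.9% and 81.6%. By peaks, 17 of the 19 WT peaks (89.5%, Wilson 95% interval 68.6 to 97.1) overlapped a Shh-/- peak, where 63.4% of all WT peaks did. For Shh-/-;Gli3-/-, 18 of 19 did (94.7%, interval 75.4 to 99.1), where the background was 70.8%. The intervals cover counting error only and treat neighbouring peaks as independent, which they are not. Wide peaks also meet another list more often by their width alone: under a reciprocal overlap of 50%, the counts were 10 and 3 of 19, since several WT peaks lie within 1 double mutant peak.

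The 3 WT peaks without a counterpart in one of the mutants were short and weak. Those missing from Shh-/- were chr6:52235150-52235299 in Hoxa10 (150 bp, log2 fold 2.32, false discovery rate (FDR) 0.168) and chr6:52248400-52248699 between Hoxa11 and Hoxa13 (300 bp, 2.25, FDR 0.211). The one missing from Shh-/-;Gli3-/- was chr6:52238600-52238749 in Hoxa10 (150 bp, 2.33, FDR 0.168). None of the 3 reached an FDR of 0.05 in WT, where 60.8% of all peaks did, and their absence is at the edge of what the caller reported.

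In the other direction, 15 of 21 Shh-/- peaks (71.4%, interval 50 to 86.2) met a WT peak, with 48.4% in the whole list, and 8 of 17 double mutant peaks (47.1%, interval 26.2 to 69) did, with 43.3% in the whole list. The 6 Shh-/- peaks without a WT counterpart were 100 to 350 bp wide with log2 folds of 2.27 to 2.89. An FDR below 0.05 was reached by 3 of them, and by 72.4% of all peaks of that list. The 9 such double mutant peaks were 100 to 550 bp wide with log2 folds of 2.02 to 2.81. Of these, 6 had an FDR below 0.05, as did 83.4% of all peaks of the double mutant list. Of the 6150 bp under a double mutant peak and no WT peak, 5400 bp (87.8%) were within 1 kb of a WT peak, 5000 bp lay between WT peaks and 1150 bp beyond the last of them. This share was not computed over the whole lists, so it cannot be called particular to the region.

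**Figure D3:**
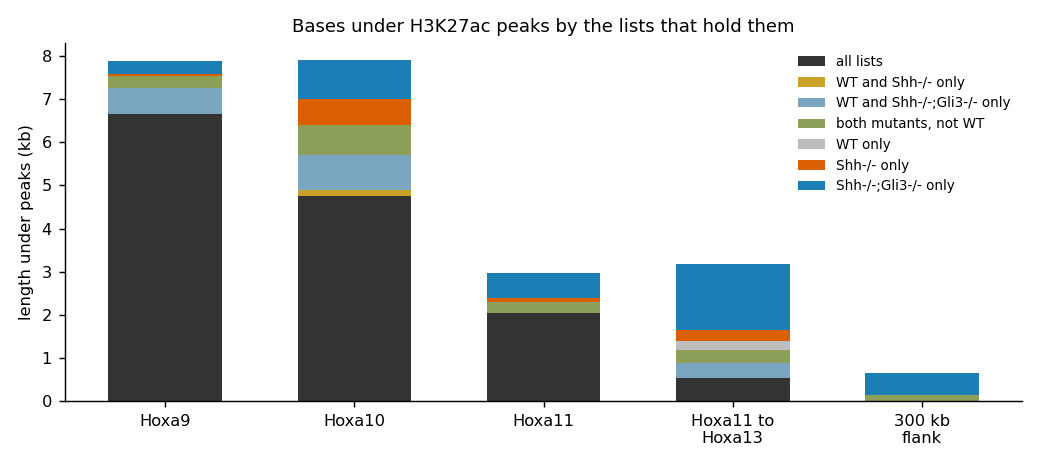
Length under H3K27ac peaks in kb (y axis) for Hoxa9, Hoxa10, Hoxa11, the interval from Hoxa11 to Hoxa13 and the 300 kb flank, each bar divided by which of the 3 lists hold the bases. Bases in all lists make up 84.3% of the Hoxa9 bar and 17.2% of the bar between Hoxa11 and Hoxa13, of which 48.3% are in the Shh-/-;Gli3-/- list alone.

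Longer coverage in a mutant was common to most genes. Over the region, covered length was 16.5 kb in the WT list, and the Shh-/- and Shh-/-;Gli3-/- lists had 17.5 and 22.3 kb. The ratios to WT were 1.06 and 1.35, below those of the whole lists, 1.25 and 1.66. Shh-/- had more covered bases than WT at Hoxa10 (ratio 1.09) and Hoxa11 (1.17) and fewer at Hoxa9 (0.964), so 2 of the 3 genes with peaks stood higher, and 61.2% of all genes with a peak in either list did. The double mutant list stood above WT at all 3, with ratios of 1.08 at Hoxa9, 1.26 at Hoxa10 and 1.4 at Hoxa11, where 71.6% of genes did. It also stood above Shh-/- at all 3 (1.12, 1.15 and 1.19), where 57.2% of genes did. The median gene had ratios of 1.11 for Shh-/- over WT, 1.25 for Shh-/-;Gli3-/- over WT and 1.11 for Shh-/-;Gli3-/- over Shh-/-. Hoxa10 was close to that median in both mutants, Hoxa9 below it and Hoxa11 above it in each comparison with WT. For Hoxa9 this was fixed in advance: it was already covered over 90.7% of its length in WT, so its ratios to WT could not reach the medians.

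**Figure D4:**
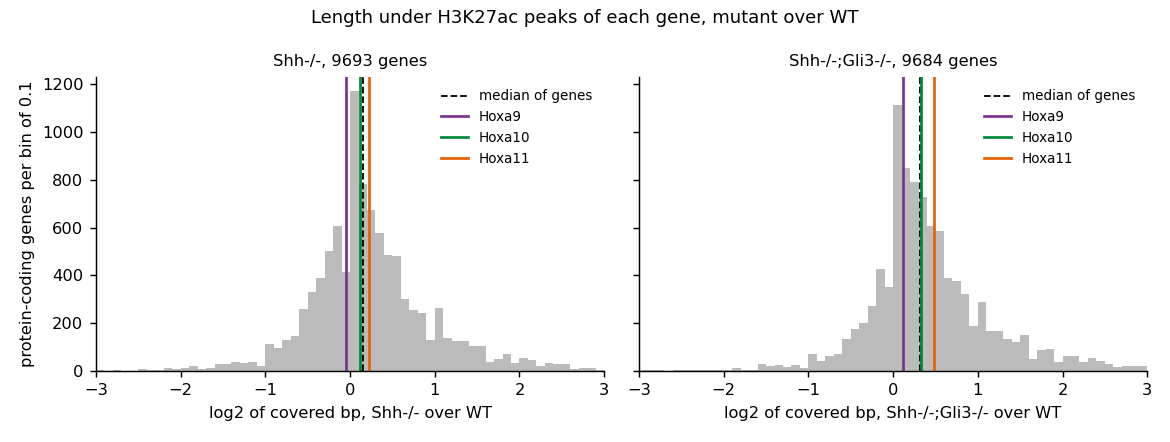
Number of protein-coding genes (y axis, bins of 0.1) by the log2 ratio of covered bp (x axis) in Shh-/- over WT (left, 9693 genes with peaks in both lists) and in Shh-/-;Gli3-/- over WT (right, 9684 genes). Hoxa9, Hoxa10 and Hoxa11 fall at -0.05, 0.12 and 0.23 on the left, around the median of 0.15, and at 0.11, 0.33 and 0.48 on the right, around the median of 0.32. Hoxa9, covered to 90.7% in WT, had too little uncovered length to reach either median.

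How far the differences reach depends on how peaks are drawn. With the mutant lists trimmed from their lowest scores to the total length of the WT list, the Shh-/- difference over the region changed from 1000 bp more than WT to -450 bp, and the double mutant difference from 5800 to 2800 bp. At an FDR below 0.05 these differences were larger, at 2650 and 7900 bp, and with each peak replaced by a 500 bp window the double mutant difference was -650 bp. With peaks less than 1 kb apart joined within each list, the covered length of Hoxa9 was equal in all 3, and the domain from Hoxa7 into Hoxa10 was 19.4 kb long in WT, made of 16 peaks, 20.1 kb in Shh-/-, made of 13, and 20.1 kb in Shh-/-;Gli3-/-, made of 2. Joined in the same way, the second block of Hoxa10 and the Hoxa11 block were separate in WT (3.4 and 3.5 kb) and in Shh-/- (3.7 and 4 kb), and formed 1 block of 12.7 kb from Hoxa10 to beyond Hoxa11 in Shh-/-;Gli3-/-.

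Beyond the Hoxa11 start, acetylation ran through part of Hoxa11os, the antisense RNA of Hoxa11, and stopped before Hoxa13. In the 11.9 kb between Hoxa11 and Hoxa13, WT had 3 peaks, Shh-/- 4 and Shh-/-;Gli3-/- 6, over 1100, 1100 and 2739 bp. Hoxa11os (chr6:52244393-52249799, plus strand) was covered to 43.6% in WT and in Shh-/- and to 76.9% in Shh-/-;Gli3-/-. Part of its span overlaps Hoxa11, so the peaks there belong to both genes. The last peak ended 2.89, 3.19 and 3.89 kb beyond the Hoxa11 start in the order WT, Shh-/- and Shh-/-;Gli3-/-, which left 8.99, 8.69 and 7.99 kb to Hoxa13. These last peaks were weak, with FDRs of 0.211, 0.177 and 0.0238. Among peaks with an FDR below 0.05, the domain ended 1.19, 1.44 and 3.89 kb beyond the Hoxa11 start. The order of the 3 genotypes was the same in both readings, and the caller's stringency moved the WT and Shh-/- ends by more than the genotypes differed in the full lists.

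The stretch without peaks took in the surroundings of Hoxa13. Hottip, the long noncoding RNA that starts beside Hoxa13 and promotes expression of 5' Hoxa genes, had no peak, nor did Evx1os, the antisense RNA of Evx1. The windows from 2 kb before to 1 kb after each of the 3 annotated Hoxa13 starts and both Evx1 starts held 0 peaks in every list. Joined peaks and fixed 500 bp windows also gave 0 peaks over both genes, but no setting could have given any there. Filters on FDR, fold or width and equalised lists only remove peaks. The nearest peaks ended 7.99 kb or more before Hoxa13 and began 124 kb or more beyond Evx1. Joining within 1 kb and 500 bp windows could not bridge these distances.

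From the last acetylated peak before Hoxa13, the next one lay 391 kb further on in WT, where 5.75% of the gaps between neighbouring peaks of the list were as long. It was at the promoter of the metabolic gene Hibadh, 322 kb beyond Evx1 and outside the 300 kb flank. In Shh-/- the run was 194 kb (9.34% of gaps as long) and in Shh-/-;Gli3-/- 193 kb (9.09%), because both mutant lists held a peak in the flank at the same place. The Shh-/- peak, chr6:52443050-52443199, was 150 bp wide with a log2 fold of 2.88 and an FDR of 0.00645, 125 kb beyond Evx1. The double mutant peak, chr6:52442650-52443199, was 550 bp wide with a log2 fold of 2.81 and an FDR of 0.00118. Both ranked near the middle of their lists (50.9% and 43.2% from the top), and no annotated gene spans the site, whose shared 150 bases are printed above. A 2nd double mutant peak, chr6:52540450-52540549, lay 222 kb beyond Evx1 and was 100 bp wide with an FDR of 0.103, 98.5% down its list. WT had no peak at either place, and the absence of a call in 1 list is not a measurement of zero acetylation. At the starts of Hibadh and of Tax1bp1, the next genes along the chromosome, each genotype had a peak (300, 350 and 650 bp at Hibadh, and 600, 650 and 700 bp at Tax1bp1).

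**Figure D5:**
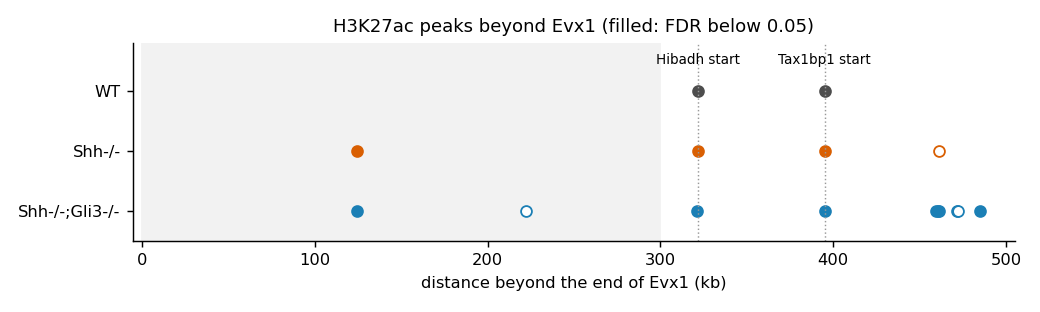
H3K27ac peaks in the WT, Shh-/- and Shh-/-;Gli3-/- lists (rows) by distance beyond the end of Evx1 in kb (x axis), with filled points for an FDR below 0.05, the 300 kb flank shaded and gene starts as dotted lines. The flank is empty in WT, and both mutants have a filled point 124 to 125 kb beyond Evx1.

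The 28 annotated genes of the region include Hibadh, a protein-coding gene whose body reaches into the flank and whose 1 peak per list lay at its start. The rest are short noncoding RNAs around Hoxa11os and Hottip and transcripts further on. Beyond Evx1, Gm8129, Gm15054, 1700094M24Rik, Gm44028, Gm44445 and Gm44434 had no peak in any list. Along Hoxa11os, the short RNAs Gm28032 and Gm27695 lay under peaks over their whole length in every list, and Gm27492 did so in both mutants and not in WT. Gm27454 was under a peak over 136 bp in WT, 0 bp in Shh-/- and 118 bp in Shh-/-;Gli3-/-.

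The paralogous end of HoxD gives the nearest comparison. From Hoxa9 to Evx1, a span of 95.3 kb, the covered lengths were 16.5, 17.4 and 21.6 kb in the WT, Shh-/- and Shh-/-;Gli3-/- lists (17.3%, 18.2% and 22.7%). The ratios to WT were 1.05 for Shh-/- and 1.31 for Shh-/-;Gli3-/-. Across the 47.2 kb of Hoxd9 to Hoxd13 and Evx2 the lengths were 11.1, 9.11 and 20.8 kb (23.4%, 19.3% and 44%), with ratios of 0.824 and 1.88. At position 9, Hoxd9 was covered over its whole length, 2482 bp, in each list, so it could not show a gain. Hoxa9 was covered over 7250, 6990 and 7840 bp (90.7%, 87.5% and 98.1%). At position 10, Hoxd10 had 2050, 1700 and 2982 bp (64.4%, 53.4% and 93.7%), and Hoxa10 5700, 6208 and 7158 bp (59%, 64.3% and 74.1%). Hoxd11 was covered over 1717 bp in WT, 100 bp in Shh-/- and 6117 bp in the double mutant (23%, 1.34% and 82%). Hoxa11 had 2050, 2400 and 2861 bp (55.3%, 64.8% and 77.2%). At position 13, Hoxd13 had 100, 0 and 940 bp and Hoxa13 none. Both Evx1 and Evx2 were without peaks. With 1 list per genotype, no test of these differences between the clusters was possible.

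Among 20 other genes of limb patterning, 15 had a peak at their start in each list, and Shh, Grem1, Fgf8 and Bmp2 had no peak over their spans in any. Covered length was above WT at 12 genes in Shh-/- and below it at 3, and above WT at 13 genes in Shh-/-;Gli3-/- and below it at 1. This last gene was Alx4, a gene of the anterior limb bud, with 1450 bp in WT, 4666 bp in Shh-/- and 850 bp in the double mutant. The background shares given above, 61.2% and 71.6%, are of genes with a peak in either list. The counts to set beside them are therefore out of the 16 genes with a peak, without the 4 that had none.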

How the data were processed

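H3K27ac MicroChIP-seq was measured in forelimb buds of 3 genotypes, with 2 replicates and 1 input each, and groups came from the sample titles. Per the submitters' processing notes, reads were aligned with Bowtie2 2.2.5 to mm10, and peaks were called by the authors with CisGenome. In the labels each list belongs to replicate 1, and pooling of replicates is not mentioned. The deposited lists give positions in steps of 50 bp, a score (the largest value of the peak statistic), a log2 fold over input, a −log10 of the smallest Poisson p-value that stops at 100, and an FDR (a q-value). The lists reach an FDR of 0.35 in WT, 0.186 in Shh-/- and 0.109 in Shh-/-;Gli3-/-. Read depth was not used here.

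From these, peaks and covered bp were computed per gene span, interval and start window (2 kb before to 1 kb after), with each peak counted once in the region, clipped at its ends, and an overlap of at least 1 bp, using pandas 2.3.3 and numpy 2.4.6 under Python 3.11.15. On simulated lists, the covered length of 1000 of 1000 spans and 200 of 200 planted absent peaks were recovered. Genes and lists were fixed by a rule (the 5 genes, every gene of the region, 5' HoxD, 20 limb genes, cell type markers, and the widest and highest scoring peaks or those within 2 kb of a start). These genes and lists were chosen with earlier results of these data known. A further planned comparison group is not reported here. Alternatives changed thresholds, list sizes, peak width, joining, overlap and region ends.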

Additional observations from a re-analysis of the deposited data

How the results depend on the processing

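No paired analysis was possible because the peak lists, 1 for every genotype, hold no values of single replicates, which also prevented leaving out a replicate. Numbers of peaks in the region (as deposited 19, 21 and 17 in WT, Shh-/- and Shh-/-;Gli3-/-) moved to 10 in WT at an FDR below 0.05 and to 10 in WT and 11 in Shh-/-;Gli3-/- below 0.01, to 9, 12 and 6 at a log2 fold of at least 3, to 8, 11 and 8 at a width of at least 500 bp, to 4, 5 and 4 when peaks within 1 kb were joined, and to 6 in Shh-/-;Gli3-/- at equal covered length. Covered length moved to 8400, 9725 and 7750 bp with every peak replaced by a 500 bp window and to 9250, 10511 and 14461 bp when the region began at the outermost Hoxa9 start. The Shh-/- minus WT difference (1000 bp) became 2650 bp (FDR below 0.05), 2300 bp (FDR below 0.01), 350 bp (equal number of peaks), 1950 bp (log2 fold), 1850 bp (width) and 1750 bp (joined), and reversed to -450 bp at equal covered length. The Shh-/-;Gli3-/- minus WT difference (5800 bp) became 2800 bp at equal covered length and reversed to -650 bp in 500 bp windows, where Shh-/-;Gli3-/- minus Shh-/- (4800 bp) reversed to -1975 bp. A 500 bp window replaces each fused peak of several kb by 1 window, so by construction it removes most of the double mutant covered length in this region. By gene, 500 bp windows also reversed Hoxa9 (Shh-/- minus WT 375 bp, Shh-/-;Gli3-/- minus WT -1465 bp, Shh-/-;Gli3-/- minus Shh-/- -1840 bp), Hoxa10 (Shh-/-;Gli3-/- minus WT -1158 bp, minus Shh-/- -2028 bp) and Hoxa11 (Shh-/- minus WT -500 bp). Equal covered length reversed Hoxa10 (Shh-/- minus WT -442 bp) and the flank (Shh-/-;Gli3-/- minus Shh-/- -150 bp), and joining reversed Hoxa10 (Shh-/-;Gli3-/- minus Shh-/- -150 bp). For the other settings, the cause was not tested. The share of WT peaks with a Shh-/- peak (89.5%) became 100% at a width of at least 500 bp and when peaks up to 500 bp apart counted as overlapping, and 52.6% with 50% reciprocal overlap. The share with a Shh-/-;Gli3-/- peak (94.7%) became 100% at both FDR thresholds, at the fold and width limits, when joined and with the gap, 44.4% in 500 bp windows and 15.8% with reciprocal overlap. Another 87 values for the region stayed within the limits set for a change (1.5 times for a count). Missing depth and replicates limit every comparison of the lists.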
